A study of Mus musculus with 18 samples.

Results

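Interferon-stimulated genes are the genes that cells switch on when interferon reaches them. A list of 47 mouse symbols was taken here, with earlier results of these data known. All 47 are among the 50559 genes of the count table. Of these, 46 passed the filter on low counts that left 18452 genes for testing. The exception, Oas3, averaged 0.182 CPM (counts scaled to library size) and was at 0 in 2 of 18 libraries, with up to 0.435 CPM in intervene, 0.474 in model and 0.362 in control. By role the list holds 5 transcription factors or nuclear body proteins, 16 antiviral effectors or RNA sensors, 9 members of the ISG15, ubiquitin and PARP system, 7 interferon-inducible GTPases, and 10 membrane or other proteins.

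Polyadenylated RNA of mouse thalamus was sequenced in 18 libraries. The intervene group (Coll IV+remodelin), the model group (Coll IV) and the control group (saline) held 6 libraries each, and every animal was labelled wild type (WT). The study asks how remodelin, a small molecule against the RNA acetyltransferase NAT10, bears on inflammation-related genes in thalamic haemorrhage. The labels do not expand Coll IV and give no dose, age, sex, time after treatment, batch or pooling.

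Libraries held 28481225 to 118461420 counts, with control replicate 1 the deepest. Replicates 4 to 6 and replicates 1 to 3 differed in markers of brain regions, a division that was seen in the data and is not in the labels. In the control group, 12 markers of thalamic neurons summed to 148 to 156 CPM in replicates 4 to 6 and to 507 to 614 CPM in replicates 1 to 3. Their sums were 332 to 502 and 403 to 497 CPM in the same sets of the intervene group, and 169 to 255 and 402 to 600 CPM in those of the model group. In the control group, 10 markers of cortical and hippocampal neurons ran the other way, with 2589 to 2757 CPM in replicates 4 to 6 and 235 to 1053 CPM in replicates 1 to 3. In the intervene group the same markers summed to 997 to 1841 and 568 to 1164 CPM in the same sets, and in the model group to 1882 to 2200 and 772 to 1530 CPM. The labelled tissue is thus less evident in model 4 to 6 and control 4 to 6 than in intervene 4 to 6 or in replicates 1 to 3, and each comparison is given over all 18 libraries and within each set. In bulk RNA, fewer cells of a type and less RNA per cell cannot be told apart.

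Type I interferons (Ifnb1 and the Ifna family) bind a receptor made of Ifnar1 and Ifnar2, and the Janus kinases Jak1 and Tyk2 then phosphorylate Stat proteins, Stat2 among them. With Irf9 these form a complex that binds the interferon-stimulated response element (ISRE) in target promoters, while interferon gamma acts on the gamma-activated site (GAS). In the brain, microglia, astrocytes and endothelial cells respond strongly to interferon. The proteins made block viral entry, translation and replication, modify other proteins with ISG15 or ubiquitin, and feed back on the pathway itself.

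Promoters of some of the members named below are shown, because the list was drawn up without promoter sequence. For Usp18, Parp9, Mx1 and Zbp1 no promoter was found. RefSeq windows (GRCm38.p6, 250 bases before to 50 bases after each start) were found for 35 of 47 members. They were searched on both strands for the ISRE core GAAANNGAAA and the GAS motif TTCNNNGAA, each printed in capitals where it occurs, with the rest in lower case. The windows are Gbp2 at chr3:142620413-142620712 (plus strand), Gbp7 at chr3:142530086-142530385 (plus strand), Ifit1 at chr19:34640639-34640938 (plus strand), Isg15 at chr4:156200769-156201068 (minus strand), Ifitm3 at chr7:141010695-141010994 (minus strand), Oasl2 at chr5:114896684-114896983 (plus strand) and Herc6 at chr6:57580742-57581041 (plus strand). Each is written 5′ to 3′ in the direction of the gene.
Gbp2: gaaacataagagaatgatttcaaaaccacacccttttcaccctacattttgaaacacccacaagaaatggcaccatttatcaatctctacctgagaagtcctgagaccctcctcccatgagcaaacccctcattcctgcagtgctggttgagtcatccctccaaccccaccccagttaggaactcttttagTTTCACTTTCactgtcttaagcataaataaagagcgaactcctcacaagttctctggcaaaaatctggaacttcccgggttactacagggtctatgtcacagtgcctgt
Gbp7: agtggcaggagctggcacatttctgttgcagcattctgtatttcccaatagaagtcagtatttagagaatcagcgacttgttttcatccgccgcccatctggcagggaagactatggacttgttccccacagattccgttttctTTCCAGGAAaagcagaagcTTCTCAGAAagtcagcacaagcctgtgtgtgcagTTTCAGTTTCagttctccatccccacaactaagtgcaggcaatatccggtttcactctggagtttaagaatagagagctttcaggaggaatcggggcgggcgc
Ifit1: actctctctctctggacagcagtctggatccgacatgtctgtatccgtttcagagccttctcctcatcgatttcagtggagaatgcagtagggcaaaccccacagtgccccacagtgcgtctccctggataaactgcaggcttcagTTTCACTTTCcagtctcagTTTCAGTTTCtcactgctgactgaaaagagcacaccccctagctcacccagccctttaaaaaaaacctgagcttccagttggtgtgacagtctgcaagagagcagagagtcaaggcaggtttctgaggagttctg
Isg15: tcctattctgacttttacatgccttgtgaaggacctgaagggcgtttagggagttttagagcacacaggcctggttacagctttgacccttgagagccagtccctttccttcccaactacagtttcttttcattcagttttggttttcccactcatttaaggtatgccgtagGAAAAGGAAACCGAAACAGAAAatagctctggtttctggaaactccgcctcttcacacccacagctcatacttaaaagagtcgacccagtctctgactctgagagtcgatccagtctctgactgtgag
Ifitm3: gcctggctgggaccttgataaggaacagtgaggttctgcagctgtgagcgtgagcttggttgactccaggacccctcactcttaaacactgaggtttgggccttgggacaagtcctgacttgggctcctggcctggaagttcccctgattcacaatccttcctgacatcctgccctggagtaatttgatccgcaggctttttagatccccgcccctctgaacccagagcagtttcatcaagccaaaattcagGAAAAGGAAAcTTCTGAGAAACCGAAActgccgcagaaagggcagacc
Oasl2: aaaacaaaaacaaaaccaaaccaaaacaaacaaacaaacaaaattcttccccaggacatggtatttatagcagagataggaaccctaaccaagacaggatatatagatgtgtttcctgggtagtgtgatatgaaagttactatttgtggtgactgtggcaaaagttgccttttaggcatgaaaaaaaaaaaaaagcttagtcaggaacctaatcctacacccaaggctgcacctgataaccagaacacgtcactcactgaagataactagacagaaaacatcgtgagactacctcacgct
Herc6: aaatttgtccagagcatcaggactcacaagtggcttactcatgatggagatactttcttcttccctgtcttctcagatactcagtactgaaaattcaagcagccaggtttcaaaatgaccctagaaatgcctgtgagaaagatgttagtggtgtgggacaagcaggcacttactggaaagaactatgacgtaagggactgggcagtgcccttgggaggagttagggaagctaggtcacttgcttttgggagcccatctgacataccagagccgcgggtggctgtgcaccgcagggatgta
The first ISRE core begins 59 bases before the start in Gbp2, 53 in Gbp7, 104 in Ifit1 and 78 in Isg15. Ifit1 holds 2 copies and Isg15 holds 3. Ifitm3 holds 2 copies after its annotated start with a GAS motif that overlaps the one farther from the start, and Gbp7 has 2 GAS motifs beside its ISRE core. In these windows of Oasl2 and Herc6 neither set of letters occurs.

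Of the 35 members with a window, 19 (54.3%) held the ISRE core, against 3.99% of 27025 genes in the same RefSeq table. The GAS motif was in 10 of 35 (28.6%), against 9.55% of genes, and 12 members had neither. All 5 GTPases with a window held the core, as did 8 of 12 antiviral members, whereas 1 of 5 transcription factors did (Stat2). In Ifitm3 and Bst2 the motifs overlapped in the search. In intervene against model, of 18 tested members with the core, 16 had a positive log2 fold change (median 0.48), as had 15 of 16 without it (median 0.36). Of 12 members without a window all were positive (median 0.80). The windows were not tested against each other.

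The members were low to moderate in abundance, with a median over members of 141 counts per library. Scaled by gene length, the highest were Ifi27, Ifitm3, Lgals3bp, Ifitm2 and Bst2, and the lowest were Oas3, Oas2, Mx1 and Zbp1. Ifi27 averaged 33.5 CPM over all libraries and Mx1 averaged 0.281 CPM. Within groups the median SD of log2 CPM over members was 0.36 in intervene, 0.34 in model and 0.39 in control. Over all genes tested it was 0.29, 0.28 and 0.33. Whether the members vary more than genes of like abundance was not tested.

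Each library was first summarised by how far its 46 members stood, at the median, from their mean over all 18 libraries on the log2 CPM scale. The intervene libraries ranged between 0.18 and 0.43, the model libraries between -0.53 and -0.01, and the control libraries between -0.57 and 0.13. Every intervene library was thus above every model and control library, and this held in both sets of replicates. The lowest were control 1 and model 5, and the highest control was replicate 4. The 47 members together made up 299 to 363 CPM in intervene, 219 to 282 in model and 201 to 297 in control libraries. Over all 18452 genes the same library medians stayed between -0.0051 and 0.024.

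**Figure D1:**
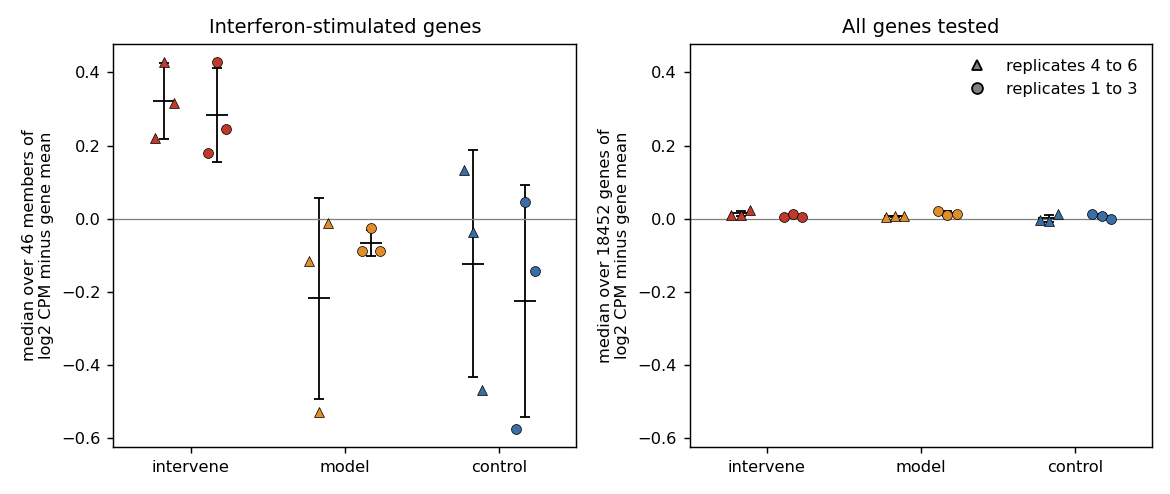
Median over the 46 tested members (left) and over all 18452 tested genes (right) of log2 CPM minus the gene's mean, one point per library, for the intervene, model and control groups; triangles are replicates 4 to 6, circles replicates 1 to 3, bars the mean ± SD of each set of 3. The 6 intervene libraries lie at 0.18 or above for the members, and all libraries lie near 0 for all genes.

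Intervene against model asks what remodelin changed under Coll IV. Of 46 members, 43 had a positive log2 fold change, with a median of 0.41, against 51.1% of all genes and a median of 0.0043. Because the members were chosen with earlier results of these data known, this count is not an independent test. No member passed an adjusted p of 0.05 in edgeR's quasi-likelihood test, where 0% of all genes did. DESeq2 and limma-voom also called none. An unadjusted p under 0.05 was reached by 22 members, all higher in intervene, against 1.86% of all genes higher and 1.01% lower. The groups did not overlap for 3 members, Usp18, Mx1 and Zbp1, all higher in intervene, against 0.152% of all genes higher and 0.0596% lower. The 3 members with a negative estimate were Herc6 (-0.27), Stat2 (-0.09) and Ifih1 (-0.01).

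Intervene against control shares its intervene libraries with that comparison, and model against control shares libraries with both. Here 42 members had a positive estimate (50.8% of all genes), the median was 0.50, and 24 members had an unadjusted p under 0.05, all higher, against 5.12% of all genes higher and 3.28% lower. Again 0 members and 0% of all genes passed the adjusted threshold in edgeR, while DESeq2 called 2 members, Gbp2 (adjusted p = 0.0153) and Parp9 (adjusted p = 0.0234), among 66 genes higher and 7 lower over all genes. Ifit1, Isg15 and Gbp3 did not overlap between the groups, all higher in intervene, against 0.369% of all genes higher and 0.119% lower.

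Model against control asks what Coll IV changed alone, and it showed no common direction. Positive estimates were found for 21 members (49.6% of all genes), and the median was -0.02. Limma-voom gave 28 positive estimates, with a median of 0.05. No member had an adjusted or an unadjusted p under 0.05 in edgeR, DESeq2 or limma-voom, where 1.02% of all genes were higher and 0.656% lower at the unadjusted threshold. In no member were the groups apart, against 0.0488% of all genes higher and 0.0813% lower. The lowest p belonged to Usp18 (-0.33 ± 0.22, SE), Eif2ak2 (0.23 ± 0.17), Ifitm2 (0.31 ± 0.23) and Ifi44 (-0.49 ± 0.37), each with an edgeR adjusted p of 1.

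**Figure D2:**
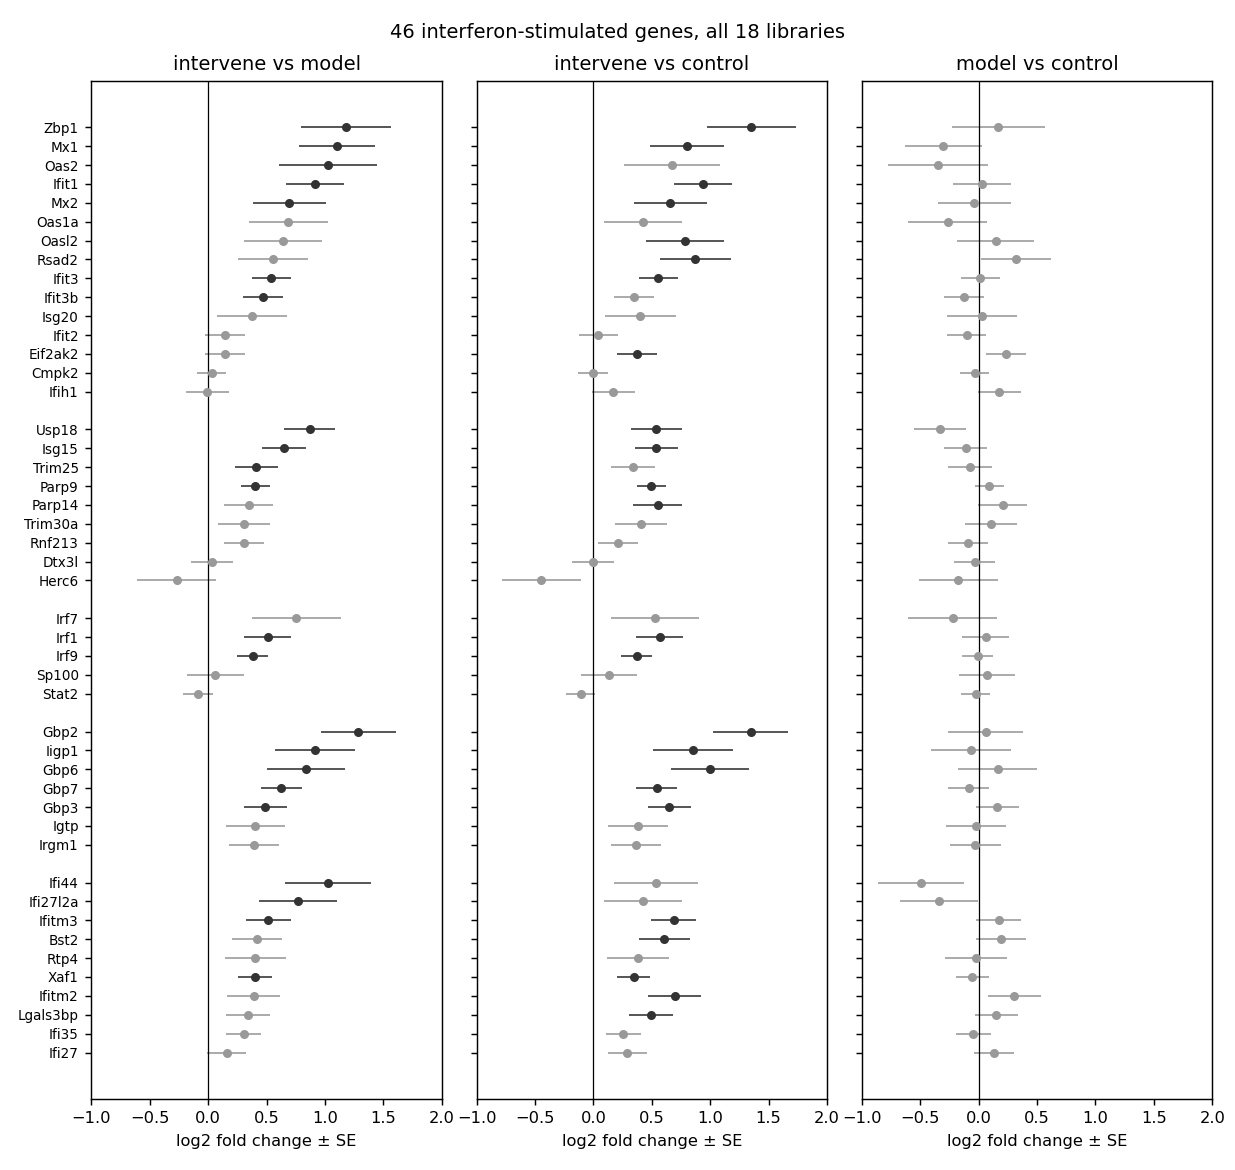
Log2 fold change ± SE from edgeR for the 46 tested members over all 18 libraries in intervene against model, intervene against control and model against control; blocks from top to bottom are antiviral effectors, the ISG15, ubiquitin and PARP system, transcription factors, GTPases, and membrane or other proteins. Dark points have an unadjusted p under 0.05; no point passes after adjustment, and the 3 panels hold 43, 42 and 21 positive estimates.

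Among the transcription factors, Stat2 was the most abundant in CPM, with estimates of -0.09 ± 0.12 against model and -0.11 ± 0.12 against control. It had 9.88, 13.0 and 14.5 CPM (lowest, median, highest) in intervene, against 10.4, 14.1 and 15.1 in model and 10.6, 13.8 and 16.8 in control. Its partner Irf9 averaged 9.54 ± 1.13 CPM in intervene, against 7.34 ± 0.996 in model and 7.38 ± 1.45 in control (SD, n = 6 each). Irf9 was thus higher in the mean, with overlapping libraries, at a log2 fold change of 0.38 ± 0.13 against model and 0.37 ± 0.13 against control. Irf1, which interferon gamma induces through GAS, had 4.60, 7.57 and 10.8 CPM in intervene, against 3.88, 5.51 and 6.37 in model and 3.86, 5.07 and 7.01 in control. The intervene libraries reached higher but overlapped both groups. Irf1 had estimates of 0.51 ± 0.20 and 0.57 ± 0.20, and Irf7, which drives interferon-alpha genes, 0.75 ± 0.38 and 0.53 ± 0.38. Sp100, a nuclear body protein, was near 0 in both (0.06 and 0.13).

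Of the antiviral members, 14 of 15 were positive in intervene against model, with a median of 0.55. Ifit1, which binds the 5′ ends of foreign RNA, had 5.07, 6.71 and 7.59 CPM (lowest, median, highest) in intervene, against 1.66, 3.36 and 5.27 in model and 1.77, 3.64 and 5.06 in control. A single model library lay above the lowest intervene library, and no control library did. Its log2 fold change was 0.91 ± 0.25 against model (edgeR adjusted p = 0.988) and 0.94 ± 0.25 against control (adjusted p = 0.326).

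Zbp1, a sensor of Z-form nucleic acid, and Mx1, a dynamin-like GTPase that restricts viruses, showed the largest antiviral estimates against model but rest on few reads. Zbp1 averaged 0.646 ± 0.275 CPM in intervene, against 0.283 ± 0.0831 in model and 0.251 ± 0.120 in control (SD, n = 6 each). Mx1 averaged 0.415 ± 0.149, against 0.192 ± 0.0477 in model and 0.237 ± 0.0936 CPM in control. No intervene library of either gene was as low as any model library. Their estimates against model were 1.18 ± 0.38 and 1.10 ± 0.33. Oas2, which makes the 2-5A that activates RNase L, was at 1.02 ± 0.42 and Mx2 at 0.70 ± 0.31. At the other end stood Cmpk2, a mitochondrial nucleotide kinase and the most abundant of this role in CPM. Cmpk2 averaged 22.4 ± 1.81 CPM in intervene, against 21.9 ± 4.12 in model and 22.4 ± 3.63 in control, and its estimates were 0.03 ± 0.13 and -0.0042 ± 0.13. Oasl2, an OAS-like protein with ubiquitin-like domains, had 4.78, 6.05 and 7.88 CPM in intervene, against 2.25, 3.79 and 5.98 in model and 1.06, 2.96 and 6.61 in control, and its estimates were 0.64 ± 0.33 and 0.78 ± 0.33. Ifih1 (MDA5), Eif2ak2 (PKR) and Ifit2 also lay between -0.01 and 0.14 against model.

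In the ISG15, ubiquitin and PARP system, 8 of 9 members were positive against model, with a median of 0.34. Isg15, the ubiquitin-like modifier itself, had 3.07, 3.22 and 3.72 CPM in intervene, against 1.57, 1.98 and 3.22 in model and 1.52, 2.36 and 2.77 in control. Usp18, which removes ISG15 and damps receptor signalling, had 1.49, 1.89 and 2.49 CPM in intervene, against 0.782, 1.06 and 1.35 in model and 0.771, 1.36 and 1.76 in control. All 6 intervene libraries exceeded all 6 model libraries for Usp18, and all 6 control libraries for Isg15. The estimates were 0.65 ± 0.19 and 0.54 ± 0.18 for Isg15, and 0.87 ± 0.22 (edgeR adjusted p = 0.988) and 0.54 ± 0.22 for Usp18, against model and control.

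Parp9, which forms an ADP-ribosylating complex with Dtx3l, had 3.57, 4.71 and 5.17 CPM in intervene, against 2.84, 3.51 and 3.99 in model and 2.98, 3.17 and 3.57 in control. The lowest intervene and the highest control library were both at 3.57 CPM, and the estimate against control was 0.50 ± 0.13 (edgeR adjusted p = 0.302). Its partner Dtx3l was near 0 in both comparisons (0.03 and -0.0022). Herc6, the ligase that attaches ISG15 in mice and the most abundant of this role in CPM, was the lowest of all members at -0.27 ± 0.34 against model and -0.45 ± 0.34 against control. Herc6 averaged 7.11 ± 1.22 CPM in intervene, against 8.58 ± 2.99 in model and 9.69 ± 5.81 in control.

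All 7 interferon-inducible GTPases, which act on vacuoles that hold pathogens, were positive against model (median 0.63) and against control (median 0.65). Gbp2 had the largest estimate of all members against model, 1.28 ± 0.32 (edgeR adjusted p = 0.988), and stood at 1.35 ± 0.32 against control (adjusted p = 0.276). It had 3.17, 8.27 and 16.0 CPM in intervene, against 2.70, 3.46 and 5.03 in model and 2.69, 2.92 and 4.97 in control. The intervene libraries overlapped the others at the low end, and 4 of 6 exceeded every library of the other groups. Gbp7 averaged 4.56 ± 0.835 CPM in intervene, against 2.96 ± 0.581 in model and 3.14 ± 0.554 in control (SD, n = 6 each), and its estimates were 0.63 ± 0.17 (adjusted p = 0.988) and 0.54 ± 0.17. Gbp3 was apart from control, with 4.58, 5.06 and 5.87 CPM in intervene, against 2.72, 3.56 and 4.76 in model and 2.23, 3.45 and 4.45 in control (0.49 ± 0.18 and 0.65 ± 0.18). Irgm1, the most abundant of this role in CPM, had 9.70, 13.9 and 17.0 CPM in intervene, against 6.97, 9.65 and 14.0 in model and 6.69, 10.1 and 15.6 in control. Its groups overlapped widely, and its estimates were 0.39 ± 0.22 and 0.36 ± 0.22. Iigp1 stood at 0.92 ± 0.34 and 0.85 ± 0.34, and Igtp at 0.40 ± 0.25 and 0.38 ± 0.25.

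The 10 membrane and other proteins were all positive in both comparisons, with medians of 0.40 against model and 0.46 against control. Ifitm3, which blocks viral entry by membrane fusion, had 13.9, 18.8 and 26.9 CPM in intervene, against 8.59, 13.9 and 16.9 in model and 9.16, 11.3 and 16.0 in control. The groups overlapped, and the estimates were 0.51 ± 0.19 and 0.69 ± 0.19 (edgeR adjusted p = 0.362 against control). Its neighbour Ifitm2 was at 0.39 ± 0.23 and 0.69 ± 0.23, and Bst2, which tethers budding virions, at 0.42 ± 0.22 and 0.61 ± 0.22. Ifi27, a mitochondrial protein and the most abundant member, averaged 37.0 ± 10.3 CPM in intervene, against 33.2 ± 5.71 in model and 30.3 ± 4.28 in control, with estimates of 0.16 ± 0.17 and 0.29 ± 0.17. Ifi44, a cytoplasmic protein, had the largest estimate of this role, 1.02 ± 0.37 against model, and 0.53 ± 0.36 against control. It rests on few reads, with 0.473, 0.816 and 1.24 CPM in intervene, against 0.118, 0.353 and 0.652 in model and 0.295, 0.592 and 0.763 in control.

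**Figure D3:**
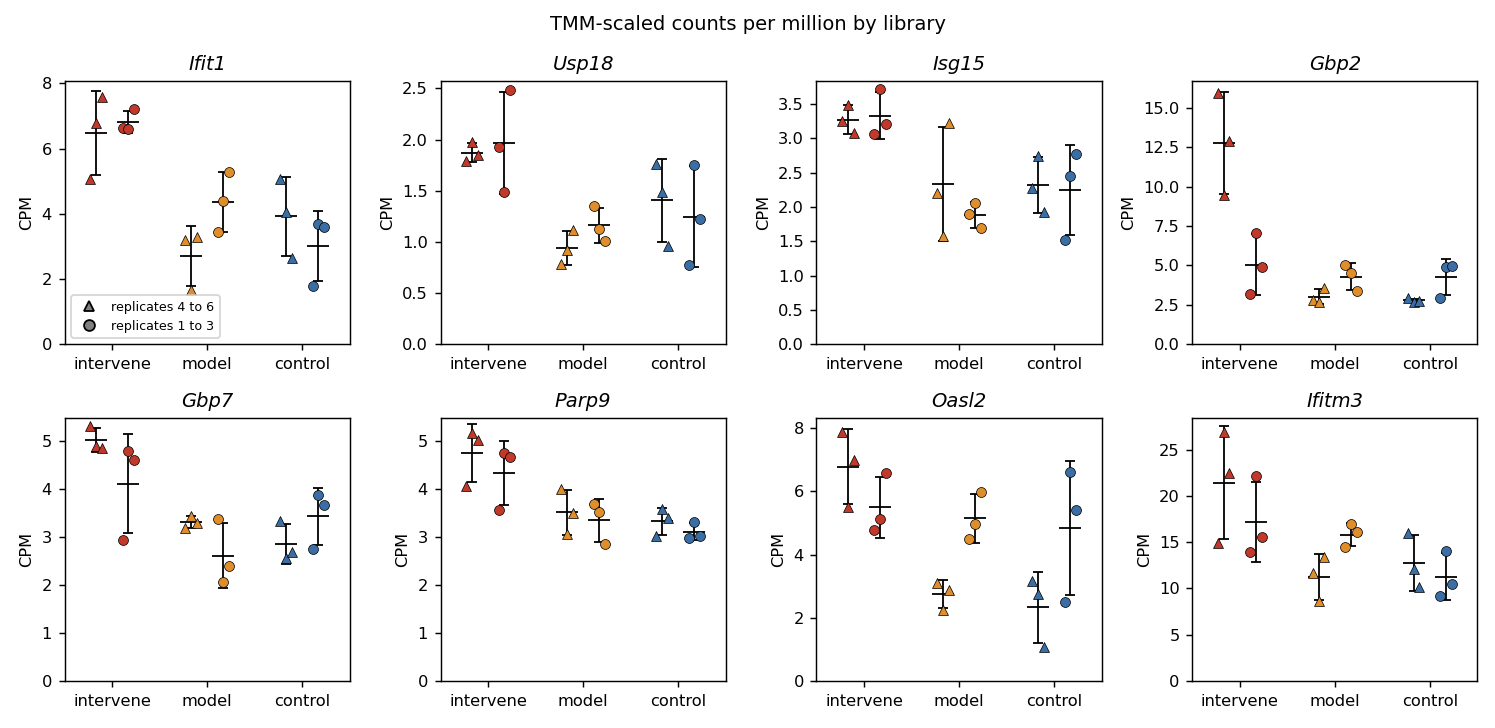
TMM-scaled CPM of 8 members in each library of the intervene, model and control groups; triangles are replicates 4 to 6, circles replicates 1 to 3, and bars the mean ± SD of each set of 3 libraries. Gbp2 spans 9.46 to 16.0 CPM in intervene replicates 4 to 6 and 3.17 to 7.09 CPM in intervene replicates 1 to 3, while Ifit1, Usp18 and Isg15 overlap between the intervene sets.

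Within replicates 4 to 6, intervene exceeded model for 4 members at an adjusted p under 0.05, Gbp2, Ifit1, Ifitm3 and Oasl2, and none fell. That is 4 of 46 members, against 3.66% of all genes higher and 2.05% lower. The split of all genes was 675 higher and 378 lower with TMM scaling, 401 and 439 with library totals, and 364 and 547 by limma on the FPKM. Gbp2 rose the most, with 16.0, 9.46 and 12.9 CPM in intervene 4 to 6, against 2.82, 2.70 and 3.57 in model 4 to 6, a log2 fold change of 2.08 ± 0.28 (edgeR adjusted p = 0.00117). The libraries did not overlap, where 14.5% of all genes lay wholly higher and 13.5% wholly lower. The call of Gbp2 held in all 25 alternatives run.

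Ifit1 had 5.07, 6.78 and 7.59 CPM in intervene 4 to 6, against 3.18, 1.66 and 3.29 in model 4 to 6 (1.26 ± 0.31, adjusted p = 0.0282). Oasl2 had 7.88, 5.50 and 6.98 CPM, against 3.10, 2.25 and 2.87 (1.31 ± 0.35, adjusted p = 0.0400). Ifitm3 had 14.9, 26.9 and 22.4 CPM, against 11.7, 8.59 and 13.4 (0.93 ± 0.24, adjusted p = 0.0359). Without model 4, model 5, intervene 5 or intervene 6, only 1 of the 4 members stayed called in each case, Gbp2. In this set 39 of 46 members were positive (49.9% of all genes), with a median of 0.57 (0.37 without model 5), and 17 lay wholly above model, against 14.5% of all genes. Stat2 lay wholly below (-0.15), against 13.5% of all genes.

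Within replicates 1 to 3, which share no library with that set, 42 of 46 members were again positive against model (49.6% of all genes), with a median of 0.38. By edgeR, 0 members and 0% of all genes passed the adjusted threshold, 7 members had an unadjusted p under 0.05, all higher (2.11% of all genes), and DESeq2 called none. For 18 members every intervene library lay above every model library, against 4.74% of all genes, and Sp100 lay wholly below, against 3.78%. The lowest p was that of Isg15, with 3.07, 3.72 and 3.20 CPM in intervene 1 to 3, against 1.90, 2.06 and 1.69 in model 1 to 3 (0.82 ± 0.27, adjusted p = 1). Gbp2 was only 0.24 ± 0.28 here, and Oasl2 0.09 ± 0.34. In both sets together, 37 of 46 members (80.4%) were positive against model in each, where 22.6% of all genes were.

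**Figure D4:**
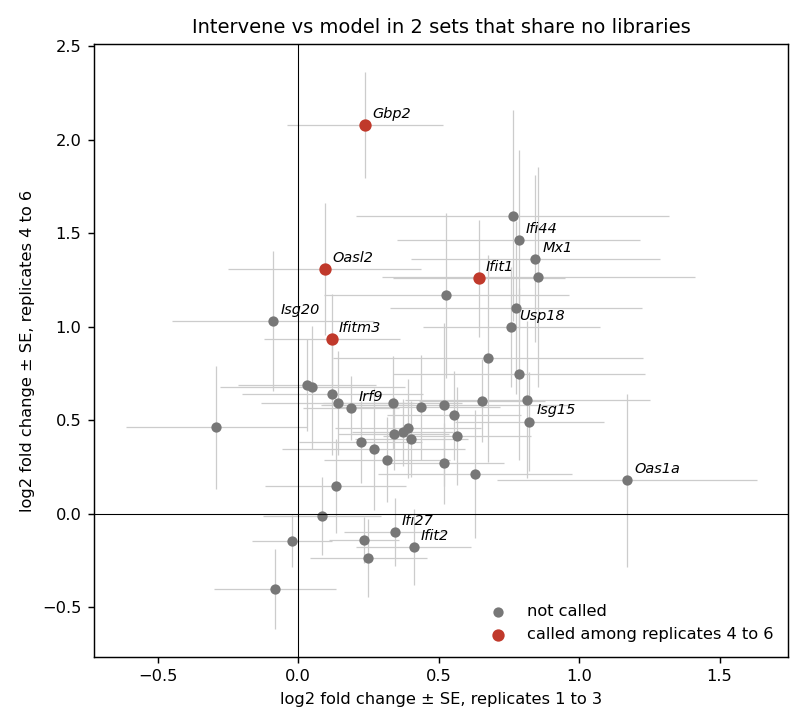
Log2 fold change ± SE of the 46 tested members in intervene against model, in replicates 4 to 6 (vertical) and in replicates 1 to 3 (horizontal); red points are the 4 members called among replicates 4 to 6. Of 46 points, 37 lie above 0 on both axes, and Gbp2 stands at 2.08 on the vertical and 0.24 on the horizontal axis.

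Against control, replicates 4 to 6 of intervene had 9 members higher and 1 lower at an adjusted p under 0.05. All genes gave 14.7% higher and 11.2% lower in that comparison, so that these counts are close to or under the background. The split of all genes was 2713 higher and 2063 lower with TMM, 2136 and 2449 with library totals, and 1656 and 2582 by limma on the FPKM. Positive estimates numbered 37 of 46 (50.4% of all genes), with a median of 0.48, or 34 with a median of 0.27 without control 6. The members that rose were Gbp2 (2.20 ± 0.28), Zbp1, Gbp6, Oasl2 (1.53 ± 0.35), Gbp7 (0.82 ± 0.22), Ifitm3, Lgals3bp, Irf9 (0.63 ± 0.17) and Parp9. Irf9 had 10.8, 10.4 and 9.95 CPM in intervene 4 to 6, against 7.31, 6.98 and 5.85 in control 4 to 6 (edgeR adjusted p = 0.0131). Gbp7 had 5.31, 4.90 and 4.86 CPM, against 3.33, 2.55 and 2.69 (adjusted p = 0.0135). In both genes the groups did not overlap. In this comparison 15 of 46 members lay wholly above control and 2 wholly below, against 21.6% of all genes above and 20.7% below. Herc6 fell, with 8.93, 7.08 and 8.11 CPM in intervene 4 to 6, against 13.1, 17.6 and 13.8 in control 4 to 6 (-0.88 ± 0.21, edgeR adjusted p = 0.00673). The count was 5 without control 5, and 6 without control 6 or intervene 5.

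In replicates 1 to 3, 45 of 46 members were positive against control (53.6% of all genes), with a median of 0.48 and 0 called by edgeR, where 0% of all genes were. DESeq2 gave an adjusted p to 37 members, 36 of them positive, and called 1, among 39 genes higher and 18 lower over all genes. An unadjusted p under 0.05 was found by edgeR for 15 members, all higher, against 5.26% of all genes higher and 3.3% lower. Ifit1 had the lowest p, with 6.64, 6.60 and 7.21 CPM in intervene 1 to 3, against 1.77, 3.68 and 3.60 in control 1 to 3 (1.20 ± 0.31, adjusted p = 0.323). For 16 members the intervene libraries lay wholly above the controls, against 7.64% of all genes. In each of both sets 36 of 46 members (78.3%) were positive against control, where 22.2% of all genes were.

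Model against control gave 0 called members in either set by edgeR, where 0% of all genes were called, and DESeq2 and limma-voom also called none. An unadjusted p under 0.05 by edgeR was reached by Ifi44 (-1.36 ± 0.47) and Herc6 (-0.48 ± 0.21) in replicates 4 to 6. There 6.17% of all genes were higher and 4% lower. In replicates 1 to 3 it was reached by Herc6 alone (0.51, higher in model), where 3.67% of all genes were higher and 2.15% lower. Positive estimates numbered 18 in replicates 4 to 6 (50.9% of all genes) and 29 in replicates 1 to 3 (53% of all genes), and 12 of 46 members (26.1%) were positive in both, where 22.4% of all genes were. With 1 library left out these counts ran from 11 (without control 6) to 28 (without control 4 or model 5) in replicates 4 to 6, and from 22 (without control 1) to 39 (without control 2) in replicates 1 to 3, so that their order is not settled. Limma-voom gave 18 positive estimates in replicates 4 to 6 (median -0.08, or -0.06 by edgeR) and 37 in replicates 1 to 3 (median 0.22, or 0.11 by edgeR). An unadjusted p under 0.05 by limma-voom was found for 2 and 4 members in the same order. Ifi44, Mx1 and Herc6 lay wholly below control in replicates 4 to 6, against 9.83% of all genes (9.96% wholly above). In replicates 1 to 3, 2 members, Ifitm3 and Dtx3l, lay wholly above control, against 5.67% of all genes.

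The difference between the sets was itself tested. For intervene against model no member passed (0.276% of all genes higher and 0.0759% lower), and Gbp2 was nearest, at 1.84 ± 0.39 on the log2 scale (edgeR adjusted p = 0.0544). DESeq2 called 1 member, among 417 genes higher and 283 lower over all genes, and the fit with no filter called 1, among 99 higher and 21 lower. For intervene against control 2 of 46 members passed, against 9.54% of all genes higher and 8.37% lower (1760 and 1545 genes, or 1125 and 1598 by limma on the FPKM). Gbp2 was more positive in replicates 4 to 6 by 1.94 ± 0.39 (adjusted p = 0.00410), and Herc6 was more negative, at -1.32 ± 0.30 (adjusted p = 0.00859). For model against control 0 members and 0% of all genes passed in edgeR. DESeq2 also called 0 members, with 148 genes higher and 69 lower over all genes. An unadjusted p under 0.05 was found by edgeR for Herc6, Ifit1 and Ifi44, all lower, which is 3 of 46 and near the share of all genes (5.56% higher and 5.71% lower).

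Some members also differed between the sets inside single groups, each by edgeR with an adjusted p under 0.05. In every group and direction the share of members called was under that of all genes. Inside control, where 18.6% of all genes were higher and 19.6% lower in replicates 4 to 6, 5 members were higher and Oasl2 was lower. Herc6 had 13.1, 17.6 and 13.8 CPM in control 4 to 6 and 4.41, 4.95 and 4.39 CPM in control 1 to 3, a difference of 1.69 ± 0.22 with no overlap (adjusted p = 4.4e-05). Inside control, 6 of 46 members lay wholly higher in replicates 4 to 6 and 1 wholly lower, against 25.4% of all genes higher and 26.6% lower. Irgm1 had 15.6, 12.9 and 11.2 CPM in control 4 to 6 and 6.69, 8.02 and 9.07 CPM in control 1 to 3. Irgm1 (0.74 ± 0.20), Dtx3l (0.57 ± 0.21), Ifih1 (0.56 ± 0.21) and Stat2 (0.41 ± 0.14) were also higher, and Oasl2 was lower at -1.03 ± 0.35. Of 24 alternatives, the call was lost in 14 for Ifih1, 10 for Dtx3l, 7 for Stat2, 5 for Oasl2 and 0 for Herc6 and Irgm1. Inside model, Cmpk2 (0.46 ± 0.12) and Herc6 (0.70 ± 0.21) were higher in replicates 4 to 6 (8.91% of all genes higher, 9.78% lower). Cmpk2 had 26.7, 26.2 and 23.3 CPM in model 4 to 6 and 18.7, 16.7 and 19.9 CPM in model 1 to 3. Inside intervene, Gbp2 was higher by 1.34 ± 0.28 and Ifi27 lower at -0.66 ± 0.18. Ifi27 had 21.3, 33.8 and 31.0 CPM in intervene 4 to 6 and 43.2, 49.6 and 43.0 CPM in intervene 1 to 3. There 7.76% of all genes were higher and 7.16% lower with TMM, 1431 against 1321 genes, or 797 against 1594 with library totals.

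**Figure D5:**
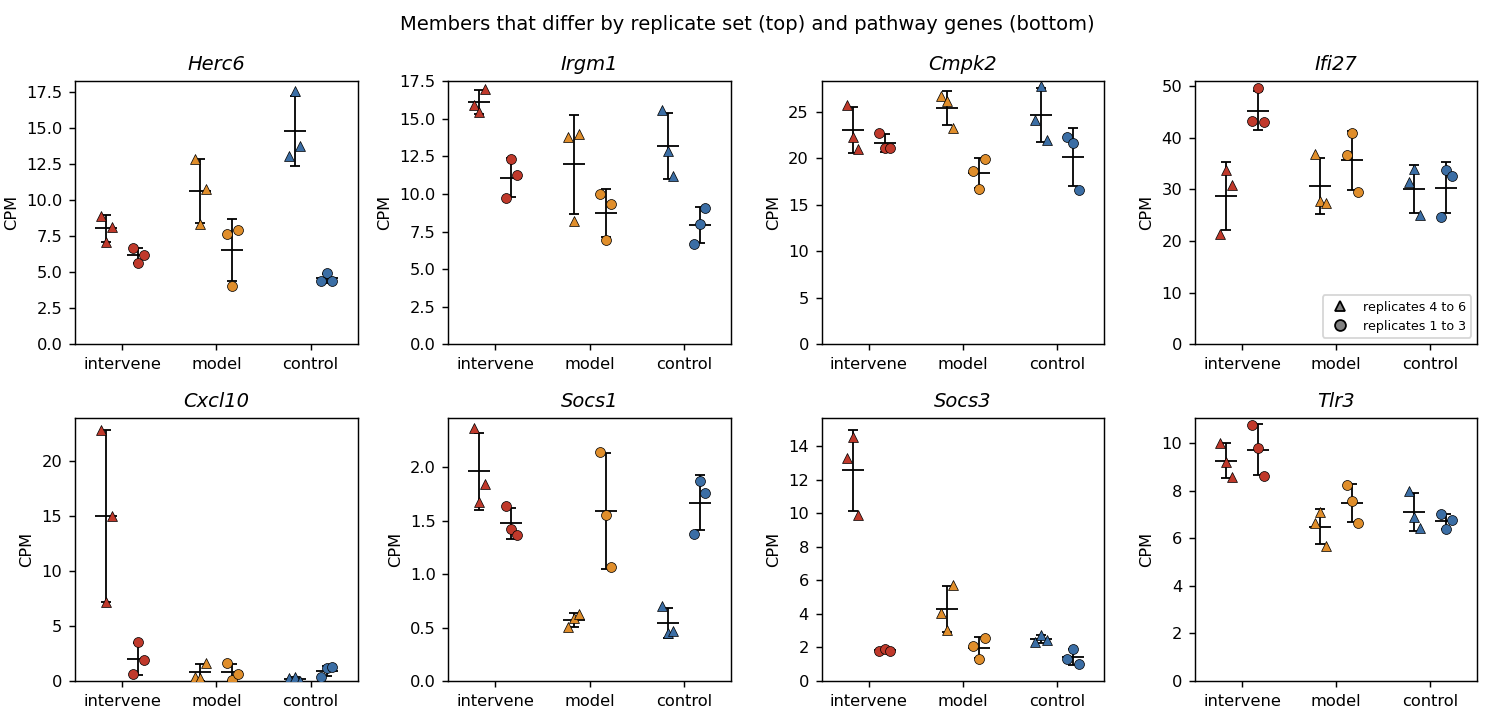
TMM-scaled CPM per library of 4 members that differ between replicate sets (top: Herc6, Irgm1, Cmpk2, Ifi27) and of 4 pathway genes that are not members (bottom: Cxcl10, Socs1, Socs3, Tlr3); triangles are replicates 4 to 6, circles replicates 1 to 3, and bars the mean ± SD of each set of 3 libraries. Herc6 stands at 13.1 to 17.6 CPM in control 4 to 6, and Cxcl10 at 7.21 to 22.8 CPM in intervene 4 to 6.

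The upstream part of the pathway was read from separate lists. The interferons themselves had almost no counts. Of 20 interferon genes, 17 had no count in any library, and all 20 together had 15 counts of 673377123, with 12 of them in Ifng. Absence of a count at this depth does not show that no interferon was made. Of 14 receptor and Jak-Stat genes, 13 were tested, and 0 were called in intervene against model over 18 libraries. Among them, Stat3 stood at 0.27 ± 0.11 and Socs3 at 1.20 ± 0.53, each with an edgeR adjusted p of 0.988. The receptor subunit Ifnar1 was at -0.06 ± 0.07 against model.

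In replicates 4 to 6, 3 of these 13 genes rose in intervene against model (3.66% of all genes), the feedback inhibitors Socs1 (1.77 ± 0.30, edgeR adjusted p = 0.00528) and Socs3 (1.55 ± 0.27, adjusted p = 0.00556), and Stat3 (0.50 ± 0.11, adjusted p = 0.0150). Socs3 had 13.3, 14.6 and 9.89 CPM in intervene 4 to 6, against 4.08, 3.05 and 5.74 in model 4 to 6. In replicates 1 to 3 neither inhibitor was called, with Socs1 at -0.11 ± 0.28 and Socs3 at -0.12 ± 0.28. Of 18 nucleic acid sensors and adaptors, the adaptor Myd88 (0.77 ± 0.18) and the double-stranded RNA receptor Tlr3 (0.51 ± 0.14) rose in replicates 4 to 6, and 0 fell. None of either list was called in replicates 1 to 3. Over 18 libraries Tlr3 stood at 0.44 ± 0.10 against model and 0.46 ± 0.10 against control (edgeR adjusted p = 0.988 and 0.217). Every intervene library of Tlr3 lay above every model and control library, against 0.152% and 0.369% of all genes. Myd88 stood at 0.61 ± 0.17 and 0.39 ± 0.16 in the same comparisons, with overlapping libraries.

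A wider list of 78 other interferon-stimulated genes, 68 of them tested, gave 59 positive estimates against model over 18 libraries (median 0.29) and 55 against control (median 0.30), with 0 called in either. Within replicates 4 to 6, 7 of 68 rose against model and 0 fell, against 3.66% of all genes higher and 2.05% lower. Cxcl10, a chemokine for T cells, had 22.8, 7.21 and 15.0 CPM in intervene 4 to 6, against 0.391, 0.296 and 1.61 in model 4 to 6 (4.32 ± 0.95, edgeR adjusted p = 0.0209). Ccl5, another chemokine, stood at 2.25 ± 0.43, the GTPase Gbp5 at 2.02 ± 0.44 and Ifi30, a lysosomal thiol reductase, at 0.98 ± 0.21. Against control in that set 17 rose and 1 fell, against 14.7% of all genes higher and 11.2% lower, and in replicates 1 to 3 none was called, with 55 of 68 positive against model (median 0.22).

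Markers of cell types were summed beside these results. For the calls below, 3.66% of all genes were higher and 2.05% lower in intervene against model within replicates 4 to 6. Microglial markers (10 genes) summed to 239 to 275 CPM in intervene, 209 to 282 in model and 203 to 312 in control, and 0 of 10 were called against model in replicates 4 to 6. Endothelial markers (10 genes) summed to 103 to 126 CPM in intervene 4 to 6, wholly below the 131 to 148 CPM of model 4 to 6, and to 107 to 151 CPM in control 4 to 6, with 0 of 10 called against model. Their sums in replicates 1 to 3 were 190 to 204 CPM in intervene, 132 to 191 in model and 107 to 162 in control. Markers of reactive microglia and macrophages (10 genes) stood apart in replicates 4 to 6, at 3766 to 4054 CPM in intervene, 2591 to 2816 in model and 2105 to 2607 in control, with 2 of 10 called higher against model. Across replicates 1 to 3 they overlapped, at 3192 to 3737 CPM in intervene, 3345 to 3777 in model and 3553 to 3800 in control. Also wholly higher in intervene 4 to 6 than in model 4 to 6 were markers of oligodendrocytes (14144 to 15674 against 8480 to 11953 CPM), of astrocytes in general (5088 to 5113 against 4497 to 4740 CPM), of erythroid cells (269 to 411 against 142 to 185 CPM) and of ependymal cells (83.6 to 143 against 30.5 to 48.9 CPM). For none of these 4 lists did intervene 1 to 3 lie wholly above model 1 to 3. Markers of reactive astrocytes (12 genes, Cxcl10 among them) summed to 646 to 935 CPM in intervene 4 to 6, against 244 to 331 in model 4 to 6 and 198 to 258 in control 4 to 6, and 10 of 12 were called higher against model. Sums in replicates 1 to 3 were 702 to 956 CPM in intervene, 574 to 768 in model and 350 to 644 in control. The 16 leukocyte markers summed to 24.5 to 46.3 CPM in intervene 4 to 6, 21.9 to 57.7 in model 4 to 6 and 15.5 to 21.4 in control 4 to 6. Of these, 7 passed the filter, and 1, the neutrophil gene S100a9 (2.67 ± 0.69), was called against model in replicates 4 to 6. Ly6g, which marks neutrophils, had 2 counts in all. Markers of the choroid plexus (10 genes) varied widely, with 137 to 4112 CPM in intervene 4 to 6, 64.5 to 117 in model 4 to 6 and 3.91 to 7.24 in control 4 to 6. Among replicates 1 to 3 they summed to 99.7 to 10461 CPM in intervene, 3361 to 5672 in model and 69.5 to 764 in control. The part of these cell types and of the region markers in the members' values was not tested.

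Several members share sequence with other genes, so that reads could be counted for either copy or for none. In GENCODE transcripts (release M21), 90.2% of 50-base runs of Gbp6 also occur in Gm43302, 57.6% of Oas1a in Oas1g, 51.2% of Ifit3 in Ifit3b, and 23.8% of Herc6 in Gm45193. Of Ifitm2, 48.5% occur in another gene. Gbp6 had 1.01, 1.78 and 3.11 CPM in intervene, against 0.770, 1.09 and 1.19 in model and 0.364, 0.820 and 1.75 in control. Oas1a had 0.616, 0.906 and 1.36 CPM in intervene, against 0.332, 0.541 and 0.840 in model and 0.311, 0.653 and 1.22 in control. Ifit3 had 14.3, 16.6 and 19.0 CPM in intervene, against 8.74, 11.3 and 14.9 in model and 8.44, 11.0 and 14.6 in control. All 3 were higher in the median of intervene, with overlapping libraries. Counts of these 5 genes and of Ifit3b are uncertain to that extent, and the labels do not say whether the libraries keep strand.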

How the data were processed

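The authors deposited raw read counts and FPKM of 50559 genes for each of the 18 libraries. Per the submitters' processing notes, HISAT2, featureCounts and GRCm39 were used; their versions are not stated there. In the 18117 genes counted in every library, the authors' FPKM equal the count over a fixed gene length and the column total (relative tolerance 1e-06), so they add no measurement. All implied lengths were even, so that a common factor is possible and only the order by length was used.

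The test on the deposited counts was the quasi-likelihood F test of edgeR 4.0.16 in R 4.3.3 (TMM scaling, filterByExpr, Benjamini-Hochberg over 18452 genes, threshold 0.05, no fold minimum). The comparisons over 18 libraries used 1 mean per group, and those within sets 1 mean for each of 6 combinations of group and replicate set. The SE is the log2 fold change over the square root of F. CPM are TMM-scaled, and log2 CPM have a prior count of 2. The labels number the libraries but do not call them separate animals, so the p-values rest on a spread that may be technical. Any pair of libraries in a group differed beyond sampling noise (chi-square over its degrees of freedom of at least 11.4, genes with at least 20 counts).

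The members and lists were chosen with earlier results of these data known. The members printed in full are, per comparison over 18 libraries, the 4 of lowest p; elsewhere those called, up to 6; the most abundant of each role; and those sharing sequence. Pathway genes are named where called, up to 4 per list and comparison, or up to 3 of lowest p where none was called. Ifnar1, and other members given beside these, were chosen after their values were seen. Alternatives were library totals, no filter, limma-voom 3.58.1, DESeq2 1.42.0, limma on log2(FPKM + 1), a replicate block, an additive set term, a fit of only the libraries compared, and leaving out each library.

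The test scripts were tested on simulated data. Same-numbered libraries of model and control deviated together (r of 0.18 to 0.63 across genes in 6 of 6 pairs), which met the criterion used for pairing (every r over 0.1); within replicate sets r was -0.18 to 0.24, with 3 of 6 over 0.1, and the labels state no pairing. Promoters are from RefSeq (GRCm38.p6), another build than that of the counts, and are placed only in their own build.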

Additional observations from a re-analysis of the deposited data

Results flagged for a closer look

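A member whose highest or lowest library stood far from the rest of its group by Dixon's criterion was found in 7 of 141 groups, where chance gives about 1 in 20. Oas3, which did not pass the filter, had 0.362 CPM in control 2, with the next library at 0.144 CPM. Isg20, an exonuclease, had 0.641 CPM in control 4, below the next at 0.930 CPM. Cmpk2 had 25.8 CPM in intervene 4, above 22.8 CPM. Bst2 had 10.2 CPM in model 2, above 6.28 CPM. Gbp7 had 2.93 CPM in intervene 1, below 4.60 CPM. In model 5, the model library with the lowest median of all members, Zbp1 had 0.118 CPM, below 0.280 CPM, and Xaf1, an apoptosis-related factor, had 4.71 CPM, below 6.70 CPM.

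In intervene against control, 2 members differed between the sets of replicates by edgeR's test of the difference. All genes gave 9.54% higher and 8.37% lower in that test, so the share of members was under this background in each direction. For Gbp2 the log2 fold change was greater by 1.94 in replicates 4 to 6 than in replicates 1 to 3. For Herc6 the difference was -1.32, with 7.08 to 8.93 CPM in intervene 4 to 6, against 13.1 to 17.6 CPM in control 4 to 6, and 5.66 to 6.71 CPM in intervene 1 to 3, against 4.39 to 4.95 CPM in control 1 to 3. Region markers differed between the same sets, and their part in both differences was not tested.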

How the results depend on the processing

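Over 18 libraries, the number of called members stayed at 0 in all 3 comparisons under library totals, no filter, limma-voom, FPKM, an additive set term, the replicate block and leaving out each library (0 to 0), except that DESeq2 called 2 in intervene against control. Positive members ranged from 41 to 44 against model and against control in these runs, and from 17 to 28 in model against control, of 44 to 47 members tested. In replicates 1 to 3 they ranged from 37 to 44 against model, with 37 without intervene 2.

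Within replicates 4 to 6, calls against model fell to 2 with library totals and ranged from 1 to 5 with a library left out. Limma-voom, FPKM and no filter each called 3 there. DESeq2 called 6, among 1106 genes higher and 774 lower over all genes. Calls against control fell to 6 with no filter and with library totals, and ranged from 5 to 12 with a library left out (10 with all libraries). In replicates 1 to 3, DESeq2 called 1 against control. For the difference between sets, no filter and DESeq2 each called 1 against model (0 to 1 with a library left out: 1 without model 1 or intervene 2), and 2 to 3 were called against control. Inside control, FPKM and no filter each called 3 (3 to 6 with a library left out; 3 without control 2, 3 or 5). Inside intervene, the fit of only the libraries compared called 1 (1 to 3; 1 without intervene 1, 2, 3 or 6). Inside model, library totals called 1 and DESeq2 4 (0 to 3; 0 without model 2 or 4). In these cases the cause was not tested.

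With the replicate block, 0 members were called in each comparison over 18 libraries, 4 in intervene against model and 8 in intervene against control among replicates 4 to 6, and 0, 2 and 0 in the differences between sets; it changed no count by over 1.5 times. For intervene against model and control the pairs share only a number: 5 and 3 of 6 correlations exceeded 0.1. For 22 called results of single members, 538 alternatives were run: 464 kept the call, 74 lost it and 0 reversed. For 12 results with no call over 18 libraries, 2 of 312 alternatives gave one. Medians by limma on log2(FPKM + 1) were 0.13 against model and 0.12 against control over 18 libraries; that scale understates low genes. Members under 1 CPM, such as Mx1 and Zbp1, rest on few reads per library. Mx1 had 10 to 20 counts in intervene libraries and 4 to 8 in model libraries. Every count of Ifit1 and Ifit2 was even, so that counts may exceed the number of RNA fragments read, which was not tested.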
